A study of Mus musculus with 6 samples.

Results

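The Krüppel-like factor genes are described here as 10 genes expressed in blood cells, *Klf1*, *Klf2*, *Klf3*, *Klf4*, *Klf6*, *Klf7*, *Klf9*, *Klf10*, *Klf11* and *Klf13*, chosen by symbol out of the 17 *Klf* genes among the 39179 genes of the count files. All 10 passed the filter on low counts and were among the 15980 genes tested. RNA-seq was made from the bone marrow of 6 mice, to ask how the transcriptome of the marrow changes when the homeotic factor CDX2, normally an intestinal gene and often switched on in acute myeloid leukemia, is expressed there. The 3 *MxCDX2* mice combined a pair of alleles: *RsCDX2*, a knockin at *Rosa26* in which a stop cassette flanked by loxP sites precedes human *CDX2*, and *Mx1Cre*, a Cre recombinase driven by the interferon-inducible *Mx1* promoter. The 3 controls differed in genotype, control 1 carrying *RsCDX2* alone, control 2 *Mx1Cre* alone and control 3, the wild type, neither allele. All 6 were 3 months old and were injected intraperitoneally 3 times with the interferon inducer poly(I:C) at 10 µg/g, and RNA was taken 6 weeks later. The *Mx1* promoter responds in many cell types, the controls held 1 mouse of each genotype, and the p-values given below rest on the spread between 3 mice per group.

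Krüppel-like factors are DNA-binding proteins with a conserved set of zinc fingers at the C terminus that recognise CACCC and GC boxes, the same elements that Sp proteins bind. Their N termini differ and sort them by partner, into mainly activating members that recruit histone acetyltransferases, members that bind the corepressor CtBP, and members that bind the corepressor Sin3. In marrow, KLF1 is the master activator of the red cell programme and switches on the genes of globin, heme and the red cell membrane, KLF2 governs lymphocyte quiescence and trafficking, and KLF4 is needed for inflammatory monocytes to form. KLF1 is also known to activate the *Klf3* and *Klf8* genes, and KLF3 to repress *Klf8*.

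Of the 10 genes, *Klf4* was upregulated in *MxCDX2* mice, *Klf1*, *Klf3* and *Klf7* were downregulated, and 6 did not pass the thresholds. *Klf1* fell 10.5-fold and *Klf4* rose 4.13-fold, whereas *Klf3* and *Klf7* fell 2.06-fold and 2.04-fold. A gene passed when its absolute log2 fold change exceeded 1 and its p-value, adjusted by the Benjamini-Hochberg method over all tested genes in edgeR, was below 0.05. The count of 4 became 0 without *MxCDX2* mouse 3, 1 without control 1 and 2 without *MxCDX2* mouse 2, and it stayed 4 in DESeq2 and limma voom. By that rule 13.6% of all tested genes passed, 4.59% upward and 9.03% downward. The values of the groups did not overlap for 5 of the 10 genes, those 4 and *Klf10*, as against 42.1% of all tested genes. The median log2 fold change of the 10 genes was 0.02, that of all tested genes 0.00.

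**Figure D1:**
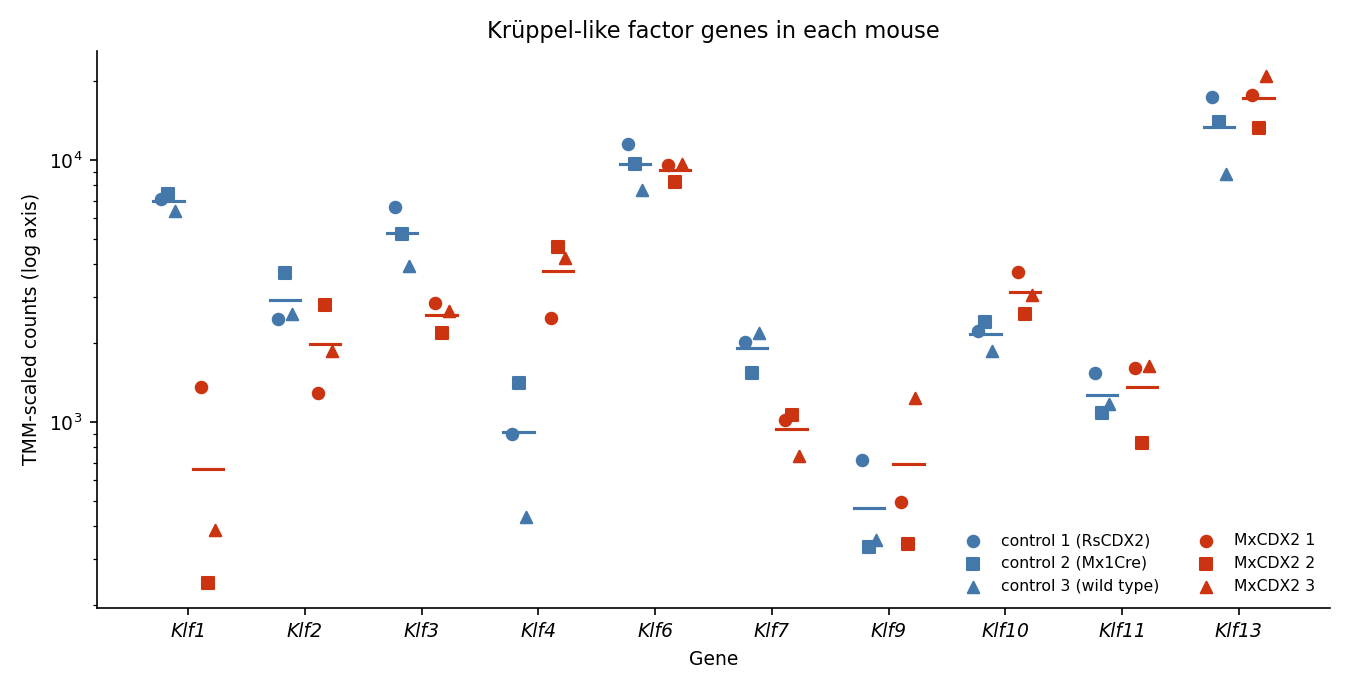
Normalised counts of the 10 Krüppel-like factor genes in each mouse, on a log axis, with blue symbols for the 3 control mice, red symbols for the 3 *MxCDX2* mice and bars for group means. The groups are apart for *Klf1*, *Klf3*, *Klf4*, *Klf7* and *Klf10* and overlap for the other 5 genes.

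The libraries held 38646101 to 49899650 reads on genes. Reads of the human transgene can be counted on mouse *Cdx2*. Its reads numbered 152 to 183 in *MxCDX2* mice and 4, 0 and 0 in control mice. These reads set the *MxCDX2* libraries apart from the control libraries. They cannot check the genotype of each control, because the stop cassette precedes *CDX2* in the control that carries *RsCDX2* alone. The *MxCDX2* mice and the controls separated on the first principal component, and the wild type control stood apart from the other controls on the second. In that mouse the 6 megakaryocyte markers summed to 265084 normalised counts, against 32068 and 22584 in the other controls and 10083 to 13798 in *MxCDX2* mice. Normalised counts are read counts brought to a common library size after TMM adjustment, and they compare mice, not genes.

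*Klf1* fell in *MxCDX2* mice, and so did every erythroid marker measured. *Klf1* (ENSMUSG00000054191, chr8:84901928-84905291, GRCm38, plus strand) had 7089.6, 7398 and 6382 normalised counts in controls 1, 2 and 3. In *MxCDX2* mice 1, 2 and 3 it had 1355, 244 and 387. The highest *MxCDX2* mouse lay far below the lowest control, and the means were 6956 ± 521 and 662 ± 604 (SD, n = 3). The log2 fold change was -3.40 (SE 0.64, adjusted p = 0.013 in edgeR's quasi-likelihood test), and the exact permutation test of 3 mice against 3 gave its smallest possible two-sided p, 0.10. Without *MxCDX2* mouse 3 the log2 fold change was -3.12 and the adjusted p in edgeR 0.055.

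All 9 erythroid markers measured fell, with a median log2 fold change of -3.37, and 4 of them passed without *MxCDX2* mouse 3. The largest fall was that of *Epor*, the erythropoietin receptor (-3.60). The 9 markers summed to between 306551 and 406422 normalised counts in controls and to 72104, 15299 and 31218 in *MxCDX2* mice 1, 2 and 3, so the mouse with the most *Klf1* left was also the one with the most erythroid marker RNA. In bulk marrow, fewer red cell precursors and less RNA per precursor cannot be told apart. Set against the geometric mean of those markers in the same mouse, a ratio chosen with the values in view, *Klf1* stood at 25.5%, 27.7% and 29.7% in controls and at 27.5%, 25.5% and 20.1% in *MxCDX2* mice. These ratios overlapped between the groups (exact permutation test, two-sided p = 0.30, n = 3).

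Known KLF1 target genes fell as well: 17 of the 18 measured passed downward and 0 upward in edgeR, with 17 past the thresholds in DESeq2 and 17 in limma voom, and 8 in edgeR without *MxCDX2* mouse 3. The median log2 fold change of the list was -3.40, and 4 of its genes are among the erythroid markers. The largest falls were those of the adult β-globin genes *Hbb-bs* (-4.19) and *Hbb-bt* (-4.15), which are near-identical copies whose reads the counting could have split unevenly. *Hbb-bs* had 972464 to 1227285 normalised counts in controls and 28926 to 102241 in *MxCDX2* mice. *E2f2*, a cell cycle factor, is named because it was the gene that did not pass. It had a log2 fold change of -0.79 and an adjusted p of 0.018 in edgeR.

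The promoters of the changed genes, 250 bases before to 50 bases after the RefSeq start in GRCm38.p6, differed in composition. RefSeq's table held 9 of the 10 genes. The *Klf1* promoter had a GC content of 51.3%, near the median of 52.7% of all 32851 promoters of that length. Those of *Klf3* (76.7%) and *Klf4* (74.3%) exceeded it, and that of *Klf7* had 58.3%. The promoters of members that did not pass ranged from 63.0% (*Klf6*) to 77.7% (*Klf11*), so a high GC content was not particular to the changed genes. The motif CCNCNCCC, read on both strands as a Krüppel-like factor or Sp site, was found in 7 of the 9 promoters, all but *Klf1* and *Klf9*, and in 49.5% of all promoters. *Klf1* alone held a GATA site, AGATAA or TGATAA on either strand, which 18.6% of all promoters hold, and *Klf2* alone held the MEF2 motif, CTA and TAG with 4 bases of any kind between them, found in 3.69%. Neither the CACCC box CCACACCC (3.56% of all promoters) nor the CDX motif TTTATNG (10.9%) was found in any of the 9. The stretches below are shown because they carry these motifs ahead of the start of 3 genes that changed and of *Klf2*, with the motif in capitals, 5′ to 3′ on the strand of the gene, and overlapping matches merged.
*Klf1* GATA site (chr8:84901893-84901916, plus): gcctgggtcTTATCAgggaagaca
*Klf3* Krüppel-like factor or Sp sites (chr5:64803292-64803321, plus): ggtgactGGGCGGGGCGCGGGCGGGGGCGG
*Klf4* Krüppel-like factor or Sp sites (chr4:55532665-55532694, minus): CCCCGCCCCGCCCGCGCCCCTCCCTCGCCC
*Klf2* MEF2 site (chr8:72318935-72318962, plus): ataccgcggCTAAATTTAGgctgagccc
The *Klf1* site lies on the minus strand, 80 bases before the RefSeq start. The *Klf4* stretch is covered by matches over all 30 bases and the *Klf3* stretch over 23 of 30. A match of letters is a description of the sequence, and binding to these stretches was not measured.

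*Klf4* was the gene of the 10 that passed the thresholds upward. *Klf4* (ENSMUSG00000003032, chr4:55527143-55532466, minus strand) had 901, 1412 and 433 normalised counts in controls 1, 2 and 3. It had 2500.0, 4645 and 4206 in *MxCDX2* mice 1, 2 and 3. Every *MxCDX2* mouse lay above every control, although the controls spread widely, with the wild type lowest, and the means were 915 ± 490 and 3784 ± 1133 (SD, n = 3). The log2 fold change was 2.05 (SE 0.45, adjusted p = 0.021 in edgeR). The adjusted p in edgeR passed 0.05 without control 1 (0.064), without *MxCDX2* mouse 2 (0.068) and without *MxCDX2* mouse 3 (0.072), with log2 fold changes of 2.05, 1.88 and 1.97.

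Of 8 genes that KLF4 acts on or with in monocytes, 4 passed upward and 0 downward, and the median log2 fold change of the 8 was 0.69. Log2 fold changes were above 0 for 7 of the 8 and below 0 for 1 (-0.48). The chemokine receptor gene *Ccr2* rose by 2.75 and *Csf1r*, the receptor of the monocyte growth factor M-CSF, by 2.08 on the log2 scale. Among the 10 monocyte markers, 7 passed upward, led by the coagulation factor gene *F13a1* (3.06) and *Ccr2*, and the median of the 10 was 1.94. Of these markers 9 had log2 fold changes above 0 and 1 below (-0.87), and without control 2, 7 passed upward and 1 downward. Both lists share 4 genes. The summed level of the monocyte markers was 50661 to 70579 normalised counts in controls and 298093 to 354169 in *MxCDX2* mice. Against the geometric mean of these markers, *Klf4* stood at 24.6%, 37.3% and 11.5% in controls and at 25.9%, 38.8% and 37.4% in *MxCDX2* mice, and the ratios overlapped (exact permutation test, two-sided p = 0.20, n = 3).

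**Figure D2:**
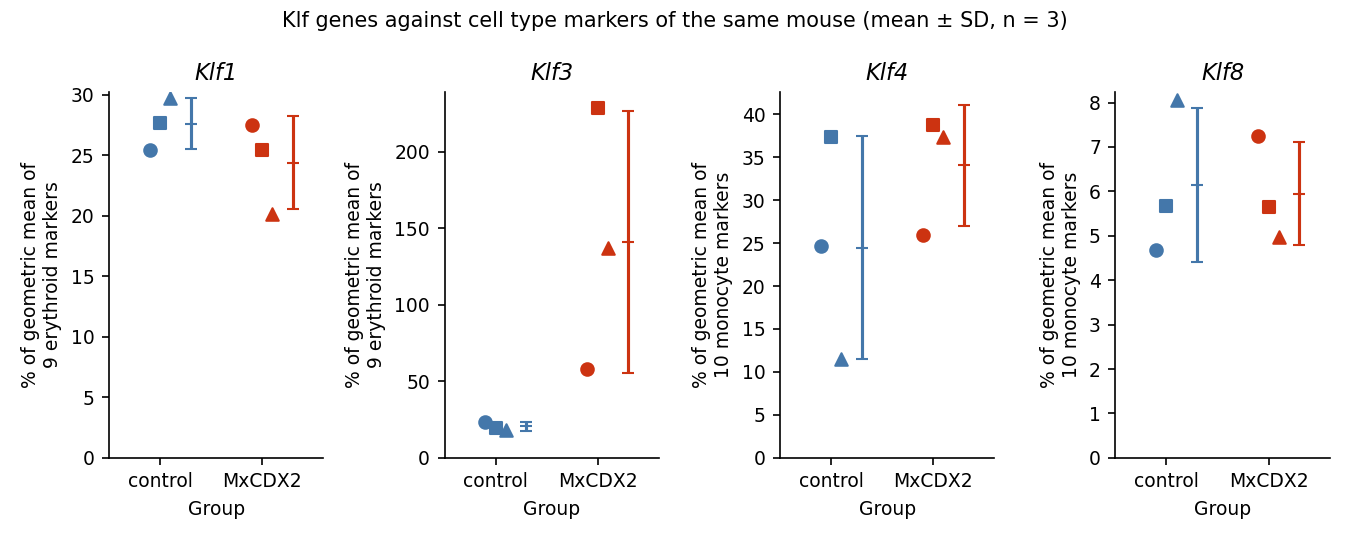
Normalised counts of *Klf1* and *Klf3* as a percentage of the geometric mean of 9 erythroid markers in the same mouse, and of *Klf4* and *Klf8* as a percentage of that of 10 monocyte markers, with group means and SD (n = 3, symbols as in the plot of counts by mouse). The ratios overlap between the groups for *Klf1*, *Klf4* and *Klf8*, and for *Klf3* every *MxCDX2* mouse, from 57.8% upward, lies above every control, at most 23.7%. The erythroid markers fell more than *Klf3*, which raises its ratio.

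The other activating members were *Klf2*, *Klf6* and *Klf7*. *Klf7* (ENSMUSG00000025959, chr1:64029447-64122282, minus strand), a broadly expressed factor also known from neurons, had 2022, 1540.1 and 2177 normalised counts in controls and 1018, 1060.0 and 739 in *MxCDX2* mice. The groups were apart, and the log2 fold change was -1.03 (SE 0.20, adjusted p = 0.014 in edgeR). This value lay just past the fold threshold and fell short of it without control 1 (-0.97), without the wild type control (-0.90) and without *MxCDX2* mouse 3 (-0.88), and when every gene with at least 1 count was tested (-0.99). On the opposite strand, exons of the noncoding gene *Gm26649* cover 39.3% of the *Klf7* exon sequence, and whether the counting used the strand was not given in the sources used here. *Gm26649* itself had 0 counts in every mouse.

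*Klf2* (chr8:72319033-72321656) had 2464, 3699.8 and 2572 normalised counts in controls and 1289, 2792 and 1860.3 in *MxCDX2* mice. The groups overlapped, and the log2 fold change was -0.56 (SE 0.30, adjusted p = 0.234 in edgeR). Of 6 KLF2 target genes, 2 passed downward and 0 upward, namely *S1pr1*, the receptor that guides lymphocytes out of tissues (-2.19), and the interleukin-7 receptor gene *Il7r* (-1.76). The count was 1 without control 1, without *MxCDX2* mouse 1 and without *MxCDX2* mouse 3. All 10 B-cell markers had log2 fold changes below 0, and 6 of them passed downward. The B-cell markers summed to between 23355 and 66606 normalised counts in controls and 6725 to 19366 in *MxCDX2* mice. Their part in the falls of *S1pr1* and *Il7r* was not tested. The count of 6 became 2 without control 1 or *MxCDX2* mouse 2 and 1 without control 2 or *MxCDX2* mouse 3. *Klf6* (chr13:5861482-5870394), which is active in myeloid cells, had 11494, 9691 and 7691 normalised counts in controls and 9539, 8260 and 9681 in *MxCDX2* mice. Its groups overlapped throughout, and the log2 fold change was -0.07 (SE 0.16, adjusted p = 0.793 in edgeR).

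*Klf3* was the CtBP-binding member among the 10, and its relatives *Klf8* and *Klf12* were measured beside it. *Klf3* (ENSMUSG00000029178, chr5:64803388-64832901, plus strand), a repressor known from red cells, B cells and fat, had 6604, 5236 and 3948 normalised counts in controls and 2843, 2189.6 and 2640.3 in *MxCDX2* mice. Its groups were apart, with a log2 fold change of -1.04 (SE 0.20, adjusted p = 0.015 in edgeR). Exons of the noncoding gene *Gm20033*, on the opposite strand, cover 3.59% of its exon sequence. Like that of *Klf7*, this value lay just past the fold threshold. It did not pass without control 1 (log2 fold change -0.83), without *MxCDX2* mouse 2 (-0.94, adjusted p in edgeR 0.057) or without *MxCDX2* mouse 3 (-1.06, adjusted p in edgeR 0.061). Set against the geometric mean of the erythroid markers, again with the values in view, *Klf3* stood at 23.7%, 19.6% and 18.4% in controls and at 57.8%, 229% and 137% in *MxCDX2* mice. These ratios did not overlap (two-sided p = 0.10 in the exact permutation test, its lower limit with n = 3). The geometric mean itself was 21469 to 27845 normalised counts in controls and 958 to 4919 in *MxCDX2* mice. The ratio and its p therefore say only that *Klf3* fell less than these markers.

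*Klf8* (chrX:153237466-153396132), outside the 10 genes, rose. It had 171, 214 and 305 normalised counts in controls and 698, 676 and 559 in *MxCDX2* mice. The groups were apart, with a log2 fold change of 1.48 (SE 0.26, adjusted p = 0.0098 in edgeR), and its call held whichever of the 6 mice was left out. Against the monocyte markers its ratio overlapped between the groups (exact permutation test, two-sided p = 0.90, n = 3). *Klf12* had 3.92 to 10.0 normalised counts in the 6 mice and was too low to test.

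**Figure D3:**
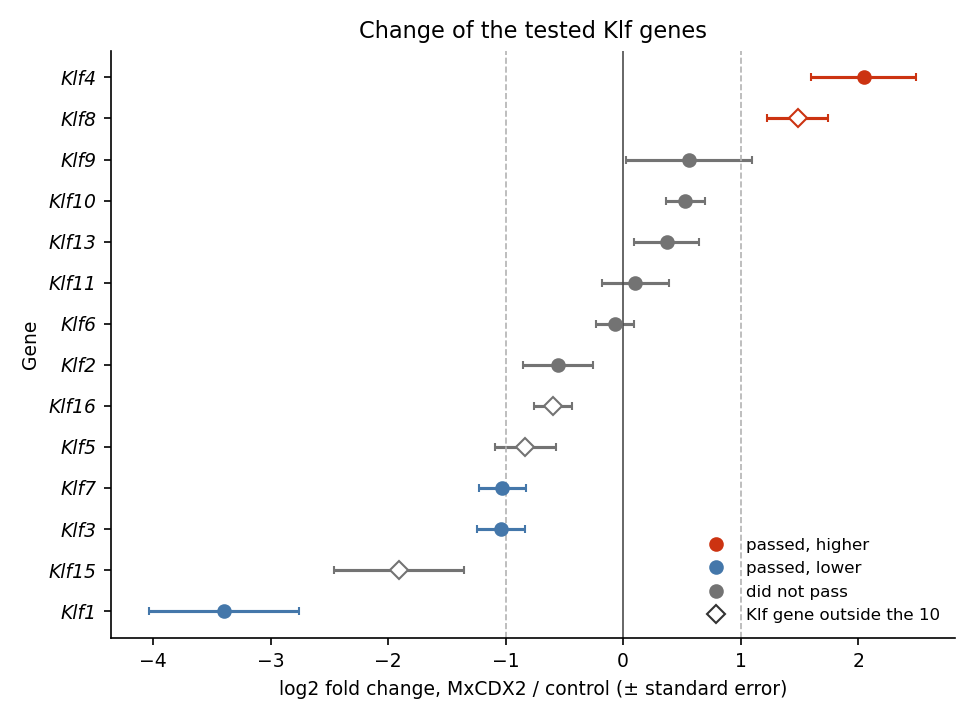
Log2 fold change with its standard error for the 14 *Klf* genes tested, as filled circles for the 10 genes and open diamonds for *Klf5*, *Klf8*, *Klf15* and *Klf16*, coloured by whether they passed. *Klf1* lies at -3.40, *Klf3* and *Klf7* lie just beyond -1, and *Klf8* and *Klf4* lie at 1.48 and 2.05.

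None of the 4 Sin3-binding members among the 10, *Klf9*, *Klf10*, *Klf11* and *Klf13*, passed the thresholds in edgeR, DESeq2 or limma voom. *Klf10* (chr15:38291463-38300706), a gene induced early by TGF-β, had 2222, 2411 and 1866 normalised counts in controls and 3732, 2588 and 3055 in *MxCDX2* mice. Every *MxCDX2* mouse lay above every control, and the log2 fold change was 0.53 (SE 0.17, adjusted p = 0.066 in edgeR). *Klf11* (chr12:24651274-24662789), the other TGF-β-inducible early gene, had 1533, 1085 and 1173 normalised counts in controls and 1601, 834 and 1638 in *MxCDX2* mice. Its groups overlapped, with a log2 fold change of 0.10 (SE 0.28, adjusted p = 0.828 in edgeR).

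*Klf13* (chr7:63886351-63938915), a factor of T-cell and red cell genes, had 17339, 13928 and 8835 normalised counts in controls and 17678, 13225 and 20897 in *MxCDX2* mice. The wild type control was lowest, the groups overlapped, and the log2 fold change was 0.37 (SE 0.28, adjusted p = 0.391 in edgeR). *Klf9* (chr19:23141226-23168134), which is induced by glucocorticoid and thyroid hormone, had 717, 334 and 355 normalised counts in controls and 495, 343 and 1233 in *MxCDX2* mice. *MxCDX2* mouse 3 stood alone at the top, the groups overlapped, and the log2 fold change of 0.56 (SE 0.54, adjusted p = 0.502 in edgeR) became -0.16 without that mouse.

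Of the 7 *Klf* genes outside the 10, 4 could be tested and *Klf8* was the one that passed. *Klf5*, best known from the intestinal epithelium, had 898, 796 and 491 normalised counts in controls and 474, 383 and 372 in *MxCDX2* mice. Its groups were apart, with a log2 fold change of -0.83 (SE 0.26, adjusted p = 0.063 in edgeR), and it passed without the wild type control (-1.03, adjusted p in edgeR 0.0103). *Klf16*, a further Sin3-binding member, had 1366, 1399 and 1606 against 1083, 783 and 1026, with a log2 fold change of -0.60 (SE 0.16, adjusted p = 0.043 in edgeR), under the fold threshold. *Klf15*, a regulator of glucose and amino acid metabolism in liver and muscle, had 29.4, 28.8 and 71.1 against 12.7, 5.88 and 15.7, with a log2 fold change of -1.91 (SE 0.55, adjusted p = 0.051 in edgeR). It passed in DESeq2 (adjusted p = 0.012). *Klf14* and *Klf17* had 0 counts in every mouse.

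Levels of different genes were compared per length, as TMM-scaled CPM per kilobase of exon. On that scale *Klf1* led the 10 genes in all 3 controls, at 99.99 ± 7.49 (SD, n = 3), followed by *Klf6* (48.2 ± 9.53), *Klf13* (39.0 ± 12.5) and *Klf2* (34.7 ± 8.15), whose spreads overlap. In *MxCDX2* mice *Klf13* (50.4 ± 11.3) and *Klf6* (45.9 ± 3.92) were highest, followed by *Klf4* (27.3 ± 8.17) and *Klf2* (23.6 ± 9.03), and neighbours within each of these pairs lay within their spread. *Klf1* was at 9.52 ± 8.69.

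*Klf1* made up 35.5%, 37.5% and 41.5% of the summed per-length level of the 10 genes in controls, and 10.2%, 1.98% and 2.72% in *MxCDX2* mice. Its rank in those 3 mice was 4, 8 and 8. The share of *Klf4* was 1.41% to 3.59% in controls and 9.46% to 18.9% in *MxCDX2* mice. *Klf13* had 11.7% to 17.6% in controls and 21.8% to 29.8% in *MxCDX2* mice, where it ranked 1, 2 and 1, although its own level did not pass the test. The summed level was 287, 284 and 221 in controls and 191, 177 and 205 in *MxCDX2* mice, so the sum was lower in *MxCDX2* mice, without overlap. *Klf1* is part of this sum, and its own mean went from 99.99 to 9.52 on the same scale. Among the 10 genes 5 had log2 fold changes above 0 and 5 below, so the lower sum does not describe the family as a whole. Shares of a sum are tied to each other, and the fall of *Klf1* alone raises the others.

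**Figure D4:**
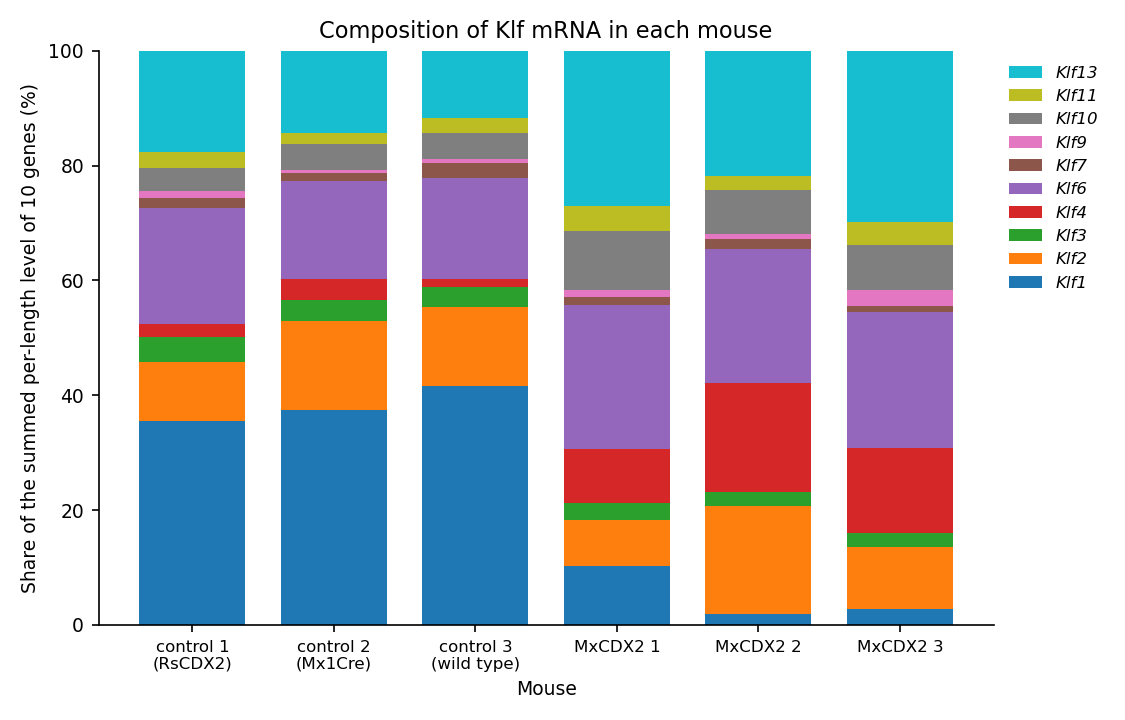
Share of each of the 10 genes in their summed per-length level, in percent, with 1 stacked bar per mouse. *Klf1* (bottom) takes 35.5% to 41.5% in the 3 controls and 1.98% to 10.2% in the 3 *MxCDX2* mice, where *Klf4*, *Klf6*, *Klf10* and *Klf13* take larger shares than in any control.

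The genes whose pattern over the 6 mice was most like that of a factor were ranked by the root mean square difference of mean-centred log2 normalised counts, over 11972 genes whose mean reached 100. Those most like *Klf1* included *Add2* (0.12), *Paqr9* (0.12), *Gfap* (0.15) and *Trim10* (0.15), where the median of all genes was 2.06. *Add2* encodes a part of the red cell membrane skeleton, *Trim10* is needed for red cell maturation, and *Gfap* is the intermediate filament gene of astrocytes. *Gfap* had 758 to 805 normalised counts in controls and 27.4 to 127 in *MxCDX2* mice. The 5 most like *Klf4* were *Alpk1* (0.29), *Mfsd7a* (0.29), *Raph1* (0.33), *Rem1* (0.33) and *S100a4* (0.33), where the median was 1.22. *S100a4*, a calcium-binding protein gene of motile and myeloid cells, had 2238 to 3760.4 normalised counts in controls and 7368 to 13408 in *MxCDX2* mice. Within the 10 genes the closest pair was *Klf10* and *Klf13* (0.27) and the farthest *Klf1* and *Klf4* (3.17).

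Of the genes for partners and regulators of Krüppel-like factors, 1 passed. Among the 9 corepressor genes, which include those of CtBP and Sin3, 0 passed in edgeR, while 6 of 9 had positive log2 fold changes and the median was 0.06. Of them 2 had an unadjusted p below 0.05, with 0 past the thresholds in DESeq2 and 0 in limma voom. These 2 are named because their adjusted p was also below 0.05, and they moved in opposite directions under the fold threshold. *Ctbp1* had a log2 fold change of -0.46 (adjusted p = 0.021 in edgeR) and *Ctbp2* one of 0.94 (adjusted p = 0.029 in edgeR). Among the 6 coactivator genes 0 passed in edgeR, DESeq2 and limma voom, and 0 had an unadjusted p below 0.05. Of 6 ubiquitin ligase genes for these proteins, *Btrc*, encoding the F-box protein β-TrCP, passed downward, with a log2 fold change of -1.59.

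Upstream of the family, 0 of 6 genes of the MEK5 and MEF2 route to *Klf2* and *Klf4* passed in edgeR, with 2 at an unadjusted p below 0.05, 0 past the thresholds in DESeq2 and 0 in limma voom. The median log2 fold change of that list was 0.38. Of 7 TGF-β genes upstream of *Klf10* and *Klf11* 0 passed in edgeR, DESeq2 and limma voom, with 4 at an unadjusted p below 0.05 and a median of 0.28. Among the *Sp* genes, which encode the proteins that share sites with the family, 5 of 9 could be tested and 0 passed in edgeR, with 2 at an unadjusted p below 0.05, 1 past the thresholds in DESeq2 and 0 in limma voom. Their median was -0.30. *Sp4* alone had an adjusted p below 0.05 (0.017 in edgeR), with a log2 fold change of -0.88, under the fold threshold.

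**Figure D5:**
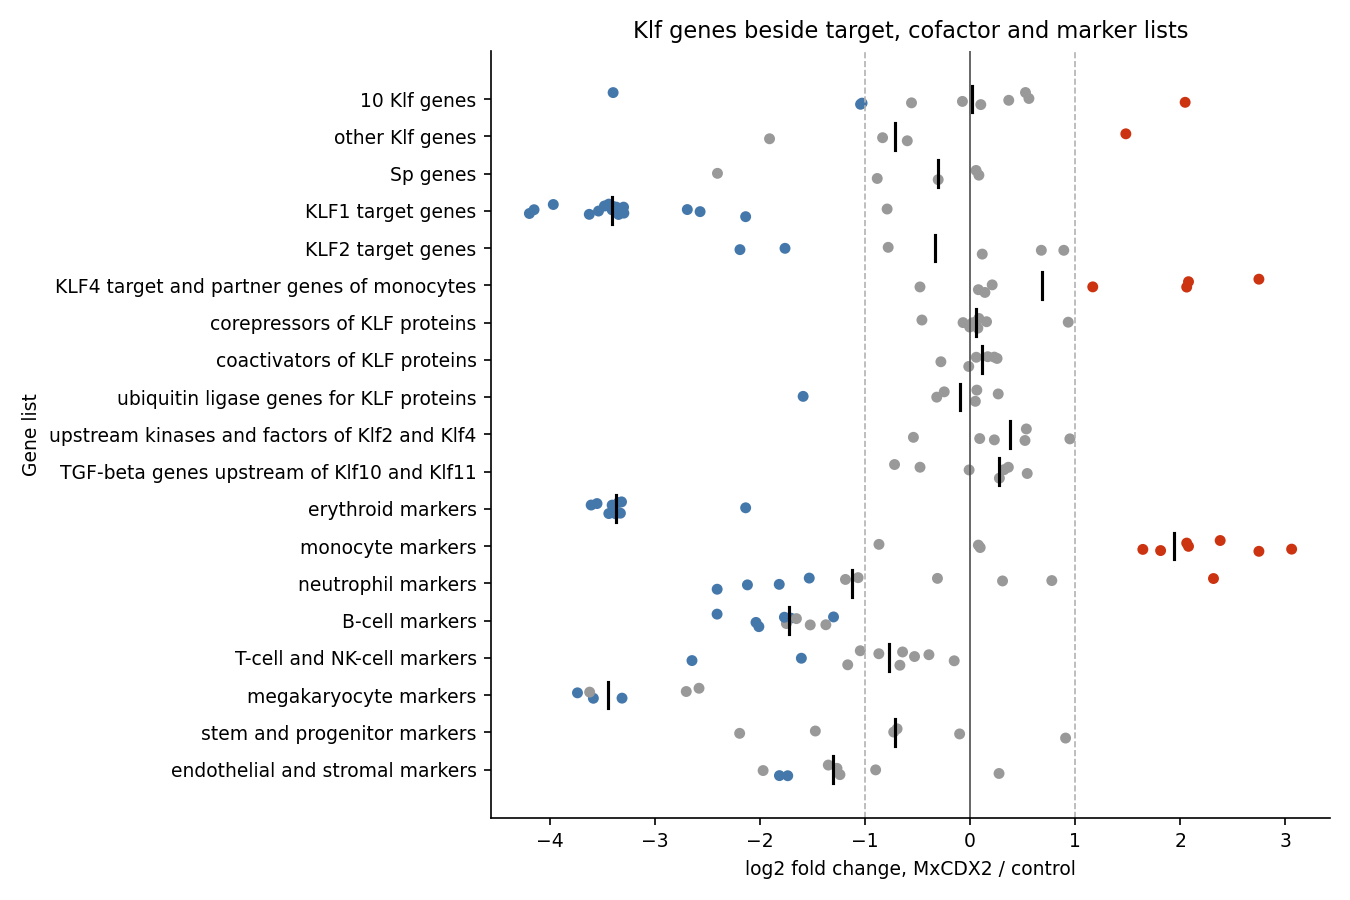
Log2 fold change of every tested gene in each list, red where a gene passed upward, blue where it passed downward and grey where it did not, with a bar at the list's median and dashed lines at the fold threshold. The 10 *Klf* genes spread from -3.40 to 2.05 around a median of 0.02. KLF1 target genes (-4.19 to -0.79) and erythroid markers (-3.60 to -2.13) have medians near -3.40, and monocyte markers run from -0.87 to 3.06.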

How the data were processed

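Bone marrow RNA of 3 *MxCDX2* and 3 control mice was sequenced from stranded mRNA libraries. The deposited values are raw counts per gene and mouse, which the authors made with HTSeq (version 0.6.1) from alignments to GRCm38 by STAR (version 2.5). Groups came from the labels, and the mice stand for 3 separate animals per group. Rows that name no gene held 12.2% to 17.1% of the reads and were left out. GENCODE M21 gave symbols and positions, RefSeq gave promoters.

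Counts were tested in R 4.3.3 with edgeR 4.0.16 (TMM, filterByExpr, glmQLFit, glmQLFTest). The standard error came from the F statistic. DESeq2 1.42.0, limma 3.58.1 and other scalings, filters and left-out mice were alternatives. Code was tested on simulated data. Figures used matplotlib 3.10.9 in Python 3.11.15. For the 10 genes, with 249 or more reads in every mouse, the spread between mice rather than the number of reads limits precision. *Klf12* and *Klf15* had few reads, which limits what can be said of them. The members and lists were chosen with earlier results of these data known. Named genes were all *Klf* genes, up to 2 per direction with the largest changes past the thresholds in other lists, and the 5 most like *Klf1* and *Klf4*. Some genes that this rule names are not reported here. *Ahsp* was not analysed here, and *Icam4* had 0 counts.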

Additional observations from a re-analysis of the deposited data

How the results depend on the processing

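The count of 4 of the 10 genes past the thresholds was 4 in DESeq2, limma voom, edgeR with DESeq2's size factors, without the 10 most abundant genes and with at least 10 counts in every mouse, and 3 with every gene of at least 1 count. It was 2 with total counts only, where *Klf3* (-0.92) and *Klf7* (-0.91) missed the fold threshold and the median of all genes moved by 0.12. It was 0 when edgeR tested each gene against an absolute log2 fold change of 1, where *Klf1* had an adjusted p of 0.054 in edgeR and 611 of all genes passed in place of 2177. With 1 mouse left out the count ranged from 0 to 4, and that of all genes from 1205 to 2406. It was 0 without *MxCDX2* mouse 3, 1 without control 1 and 2 without *MxCDX2* mouse 2, in fits with 1 mouse fewer. Signs turned for *Klf6* with total counts (0.052) and with a mouse left out (range -0.19 to 0.089), for *Klf9* without *MxCDX2* mouse 3 (range -0.16 to 1.01 over the left-out mice), and for *Klf11* without *MxCDX2* mouse 1 or 3 (range -0.049 to 0.36), and the cause was not tested. Of all called genes, 33.7% were higher in *MxCDX2* mice, and 41.5% with total counts. Counts in the other lists stayed within 1.5 times of the values given in 205 of 252 refits. With 1 mouse left out, 1 gene passed in lists that had 0, among *Sp* genes without *MxCDX2* mouse 1, upstream genes without *MxCDX2* mouse 1 or control 2, corepressors without control 1 and stem and progenitor markers without control 3. No paired analysis was possible because the control labels carry no replicate number, only a sample number that runs through the series.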

Other observations

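Markers of other marrow cell types changed as well. Of 10 neutrophil markers 7 had log2 fold changes below 0 and 3 above. Of them 4 passed downward, led by *Retnlg*, a gene of mature neutrophils (-2.41), and *Mmp8*, the neutrophil collagenase (-2.12). The 1 that passed upward was *Ctsg*, a gene of primary granules (2.32 on the log2 scale). The count of 5 past the thresholds was 7 in DESeq2, limma voom and edgeR without control 3, 3 without *MxCDX2* mouse 1 and 2 without *MxCDX2* mouse 3. Of 10 B-cell markers 6 passed downward, among them *Ms4a1* (-2.41), and of 10 T-cell and NK-cell markers 2, *Cd4* (-2.64) and *Klrb1c* (-1.60). All 10 in each of these lists had log2 fold changes below 0. The B-cell count was 1 to 8 with 1 mouse left out, lowest without control 2 or *MxCDX2* mouse 3, and the T-cell and NK-cell count was 0 without *MxCDX2* mouse 2 and 1 without control 2, *MxCDX2* mouse 1 or *MxCDX2* mouse 3. Of 6 megakaryocyte markers 3 passed downward, led by *Gp9* (-3.73) and *Gp1ba* (-3.58), and all 6 had log2 fold changes below 0. Of 8 endothelial and stromal markers 2 passed downward, *Cxcl12* (-1.81) and *Cdh5* (-1.73), while 7 had log2 fold changes below 0 and 1 above. The megakaryocyte count was 2 in DESeq2, 0 in limma voom and 0 when any single *MxCDX2* mouse was left out. The endothelial and stromal count was 3 in DESeq2, 0 in limma voom, 0 without control 1, control 3, *MxCDX2* mouse 1 or *MxCDX2* mouse 2, and 1 without *MxCDX2* mouse 3. None of 6 stem and progenitor markers passed in edgeR, with 3 at an unadjusted p below 0.05, 1 past the thresholds in DESeq2 and 0 in limma voom.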
